A study of Homo sapiens with 5 samples.

Results

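The genes described here encode RNA polymerase II and the general transcription factors that place it on a promoter. They were chosen as the protein-coding rows of the deposited table whose symbol begins with POLR2 or GTF2, together with TBP, TBPL1, TAF1 to TAF13, CDK7, CCNH and MNAT1. This gave 52 of 33857 listed genes, under 51 symbols, because POLR2J3 is listed under 2 identifiers. Poly(A+) RNA was sequenced from H9 cells, an established human embryonic stem cell line kept in mTeSR medium without further treatment. The 2 mock control samples came from clones given the empty editing vector. The 3 CFIm25-m samples, titled CFIm25 KO and elsewhere KD, came from 3 clones made by CRISPR-Cas9 editing of NUDT21, the gene of CFIm25, a subunit of an mRNA 3′ end processing complex. These clones keep a low amount of a protein shortened at its N-terminus, so they are not full knockouts, and they are numbered here by the replicate numbers of the labels. Vector transfection and puromycin selection were common to the procedure for all clones. Each value was a normalized count, a read count divided by a size factor for its sample.

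RNA polymerase II transcribes all protein-coding genes but cannot find a promoter alone. In the textbook order of assembly, TFIID, made of the TATA-binding protein TBP and its associated factors, binds the core promoter first, and TFIIA and TFIIB stabilise it there. TFIIF then brings in the polymerase, and TFIIE recruits TFIIH, which opens the DNA and phosphorylates the C-terminal tail of the largest polymerase subunit. Nearly all of these proteins are needed in every dividing cell, and many act in fixed proportions.

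Before the levels, the promoters of the central members show what kind of start these genes have. RefSeq promoters of GRCh38.p14 were found for 40 of the 52 members, each reaching from 250 bases before the start to 50 bases after it. For the deposited table the submitters' notes name hg38, with no patch level. The 120 bases before the start are given here 5′ to 3′ for the largest polymerase subunit, TBP, TFIIB, the largest TFIID subunit and a duplicated pair of TFIIH genes. These RefSeq starts lay 377 (GTF2B), 118 (TAF1), 67 (TBP), 13 (GTF2H2), 0 (POLR2A) and −17 (GTF2H2C) bases inside the deposited 5′ end. Most of the TAF1 stretch, with its marked motif, thus lies inside the deposited gene. Capitals mark TATAAA or the ETS-type motif CCGGAAG, which on the other strand reads CTTCCGG.
POLR2A (chr17:7484246-7484365, plus strand): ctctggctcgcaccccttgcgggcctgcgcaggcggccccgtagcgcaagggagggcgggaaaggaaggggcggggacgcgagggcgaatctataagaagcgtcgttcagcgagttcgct
TBP (chr6:170554249-170554368, plus strand): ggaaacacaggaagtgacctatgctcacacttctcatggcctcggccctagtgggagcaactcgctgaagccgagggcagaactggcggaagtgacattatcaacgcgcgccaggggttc
GTF2B (chr1:88891568-88891687, minus strand): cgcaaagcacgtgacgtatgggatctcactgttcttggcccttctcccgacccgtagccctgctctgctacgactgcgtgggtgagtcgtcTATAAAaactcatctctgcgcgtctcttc
TAF1 (chrX:71366237-71366356, plus strand): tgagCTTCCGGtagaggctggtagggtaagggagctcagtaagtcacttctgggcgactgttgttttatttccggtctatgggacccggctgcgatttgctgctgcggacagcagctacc
GTF2H2 (chr5:71067677-71067796, minus strand): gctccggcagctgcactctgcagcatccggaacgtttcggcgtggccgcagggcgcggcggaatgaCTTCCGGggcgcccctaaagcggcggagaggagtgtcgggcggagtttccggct
GTF2H2C (chr5:69560071-69560190, plus strand): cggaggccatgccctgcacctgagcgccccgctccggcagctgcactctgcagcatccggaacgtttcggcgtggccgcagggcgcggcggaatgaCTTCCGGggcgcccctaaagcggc
The gene of TFIIB was the single one of the 40 with TATAAA on its own strand between 40 and 20 bases before the start, its first T lying 29 bases upstream of a RefSeq start that was 377 bases inside the 5′ end of the deposited gene. That is 2.5% of the members, beside 1.78% of 11592 tested coding promoters. Only the exact letters were counted, so a near match such as the tataag printed for POLR2A was not. Searched on both strands over the whole 300 bases, TATAAA stood in 5% of member promoters and 5.81% of tested coding promoters. ETS motifs were found in 16 of 40 member promoters (40%), against 17.4% of all tested coding promoters, among them those of POLR2C, POLR2D, TAF1, TAF3, TAF12, TAF13, GTF2F1 and GTF2H1. The near-identical promoters of GTF2H2 and GTF2H2C were both counted among the 16, while GTF2B, GTF2E1, GTF2IRD1 and TBPL1 had no match. The GC box GGGCGG was in 62.5% of members and 69.3% of coding promoters, CCAAT in 20% and 36.0%, the NRF1 motif TGCGCATGC in 5% and 2.59%, and the YY1 motif AAGATGGCG in 5% and 3.50%, all on both strands. CCAAT and GGGCGG are short and their matches can stand close to the other motifs, so the counts are not exclusive. Over 270 aligned bases the promoters of GTF2H2 and GTF2H2C shared 268 (99.3%), with annotated starts displaced by 30 bases. A match describes letters in this window and is not a bound site.

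Recovered read totals ran from 18754108 to 23372391 and overlapped between the groups. NUDT21, the edited gene, had 6503 and 6398 normalized counts in the mock controls against 4035, 3281 and 3400 in the clones, a difference of −0.86 on the log2 scale (SE 0.11, limma adjusted p = 0.0043). With mock control replicate 1 or 2 left out the difference was −0.85 or −0.87, and the limma adjusted p rose to 0.062 or 0.056. All 6 stem cell markers were well expressed, from a mock mean of 1311 for NANOG to 56650 for DNMT3B. Of 11 germ layer markers 6 were under the filter, and the highest, TBX6, had a mock mean of 76.6. None of the 11 markers tested passed, while DNMT3B and LIN28A, at 45180 and 43124 in the clones against 56650 and 56465, had an unadjusted limma p of 0.037. Of the 6 stem cell markers, 4 differences lay below 0 and 2 above. The 2 were POU5F1 (30814 in mock control, 35620 in CFIm25-m) and TDGF1 (11292 and 12458), each above both controls in every clone. In these bulk samples fewer cells of a type and less RNA per cell cannot be told apart, and a part of these marker differences in the values below was not tested.

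No polymerase or general factor gene passed the test of CFIm25-m against mock control. Of the 51 members tested, 0 were called lower and 0 higher by limma at an adjusted p under 0.05, beside 0.936% of 19232 tested genes called lower and 0.941% called higher. Over all genes that is 180 lower and 181 higher, and with library-total scaling 147 and 240, again with 0 members. At an unadjusted p under 0.05, 3 members (TAF2, GTF2IRD1 and GTF2B) were lower where 7.15% of all tested genes were, and 4 members (GTF2IRD2B, GTF2H3, GTF2E1 and GTF2IRD2) were higher where 7.99% of all were. Both shares, 5.88% and 7.84%, lay near that background. The count tests on recovered reads also called 0 members, with 2 lower and 4 higher at an unadjusted p under 0.05 by edgeR and 1 lower and 3 higher by DESeq2. The member left out, GTF2A1L, a germ cell relative of TFIIA, was between 0 and 0.97 normalized counts, at or under 1 read in each sample.

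The size of the differences was bounded for most members. No tested member had a difference over 1 on the log2 scale, where 440 of 14801 tested coding genes did. The 95% limma interval stayed within ±1 for 47 of 51 members and within ±0.5 for 36, beside 12367 and 7964 of the coding genes. Among rarely read members its bounds reached −1.41 (POLR2J2) and 1.96 (GTF2H4). The median difference was −0.09, with 31 members below 0 and 20 above, while the median was −0.01 over all tested genes and −0.03 over tested protein-coding genes. All values of the clones lay below both mock controls for 15 members (29.4%), where 19.8% of all tested genes and 3401 of 14801 tested coding genes did so. They lay above both for 7 members (13.7%), beside 17% of all tested genes. These counts depend on the scaling. With each sample divided by its total reads in place of the deposited size factor, an alternative added after seeing the data, 7 members (13.7%) lay below both controls where 12.7% of all tested genes did, and 10 (19.6%) lay above both where 23.2% did. POLR2A, GTF2B, TAF2, GTF2F1, GTF2F2, MNAT1 and GTF2IRD1 were below on both scales. POLR2E, POLR2M, TBP, TAF1, TAF3, TAF4, TAF5 and CCNH were below on the deposited scale but overlapped on the other, on which POLR2H, POLR2K and TAF9 joined those above. The median member difference on the library-total scale was −0.02, against 0.06 over all tested genes.

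**Figure D1:**
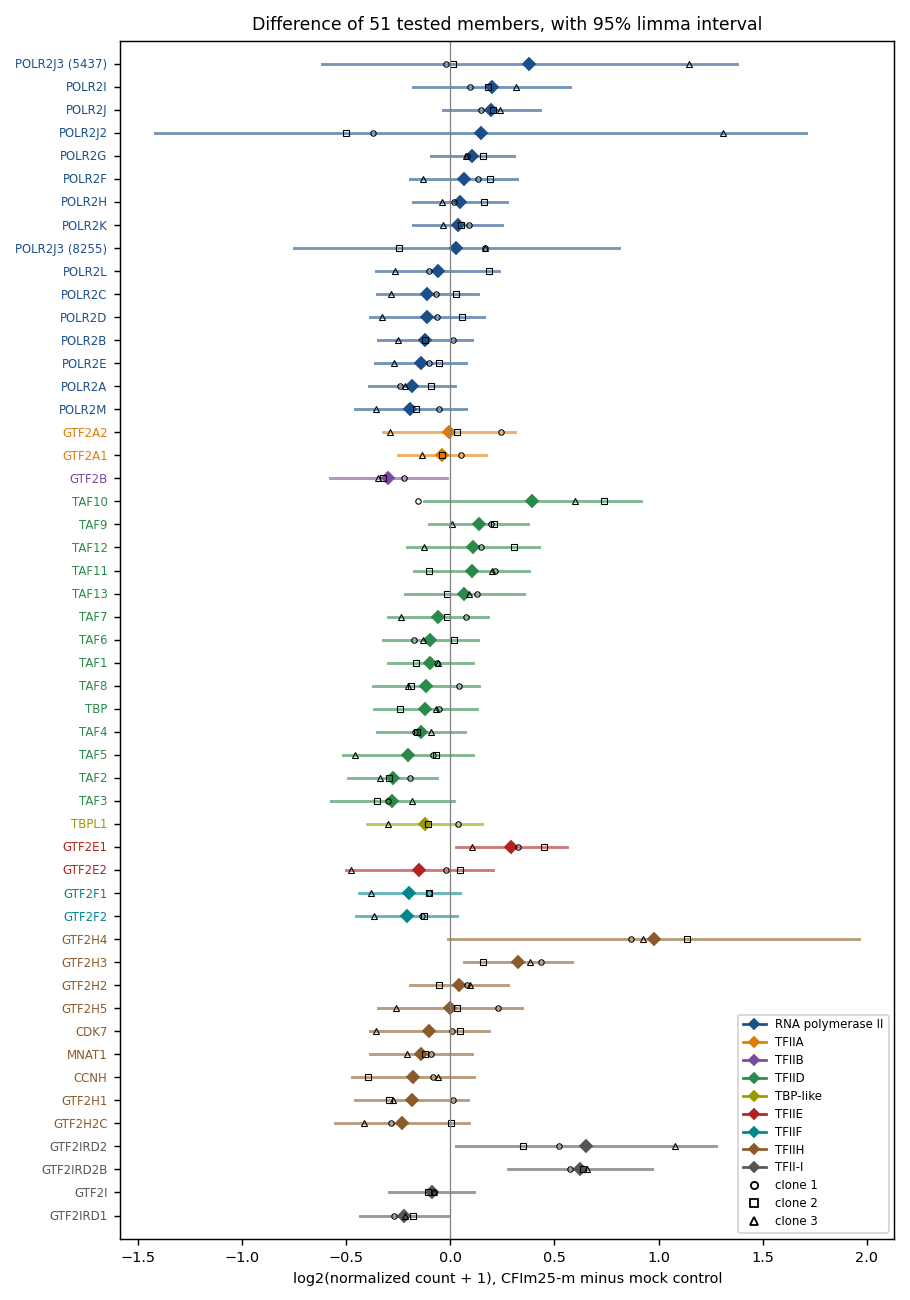
Each row is a tested member, coloured by complex, and the x axis is the difference of log2(normalized count + 1) between CFIm25-m (n = 3) and mock control (n = 2). Diamonds are limma estimates, bars their 95% intervals and open symbols the 3 clones against the mock mean. Of the 51 diamonds 31 lie below 0, most bars cross 0, and the widest bars belong to rarely read genes such as POLR2J2 and GTF2H4.

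The 3 clones did not contribute alike. Clone 1 had a median member difference of 0.01 from the mock mean, clone 2 of −0.02 and clone 3 of −0.13. Members lay below the mock mean in 25, 27 and 35 cases of 51, in the order of the clones. Clone 3 was also the lowest over all tested coding genes, with a median of −0.07 beside −0.01 in clones 1 and 2. Without clone 3 the median over members was −0.0024 on the log2 scale, and with all clones kept, quantile normalization gave −0.03, so the small shift below 0 depended on that library and on the scaling. The members' share of all recovered reads was 0.270% and 0.274% in the mock controls against 0.277%, 0.274% and 0.260% in the clones, in the same order, and on this scale too clone 3 was the one below both controls.

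**Figure D2:**
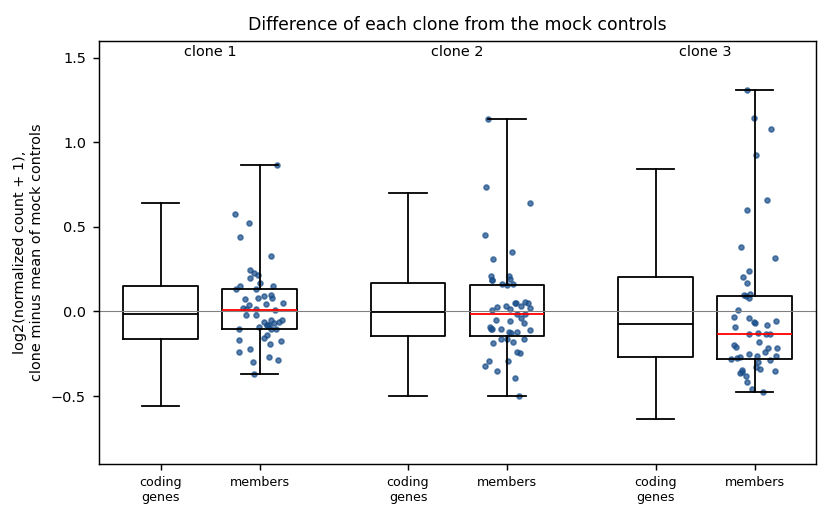
For each of the 3 clones the left box shows 14801 tested coding genes (quartiles, median, whiskers at the 5th and 95th percentiles) and the right box the 51 tested members with every point, as the difference of log2(normalized count + 1) from the mean of the 2 mock controls. Member medians are 0.01, −0.02 and −0.13, and the lowest box is that of clone 3.

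For the polymerase itself no row passed the test, which does not show that the groups had equal levels. The 16 polymerase rows had a median difference of 0.03, with 7 below 0 and 9 above. Among those above were the rarely read copies POLR2J2 (0.15) and POLR2J3 (rows at 0.03 and 0.38), and the sign of this median rests on them. The summed normalized counts of the 16 rows came to 26379 ± 97.6 (SD, n = 2) for mock control against 24806 ± 1533 (SD, n = 3) for the clones. That is a ratio of 0.940 (0.972 without clone 3). POLR2A, the catalytic subunit that carries the C-terminal repeats, lies at chr17:7484366-7514616 on the plus strand. It had 7939 and 8131 normalized counts in the mock controls against 6806, 7531 and 6914 in the clones. Every clone was thus below both controls, but the difference of −0.18 (SE 0.09, 95% interval −0.39 to 0.03) did not pass the test (limma adjusted p = 0.39). It was −0.06 with quantile normalization and −0.11 with library-total scaling. POLR2B, which forms the active site with it, was at 3944 ± 117 in mock control against 3640 ± 338 in CFIm25-m, and these values overlapped.

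Smaller subunits lay on either side of 0. POLR2E, a subunit shared by all 3 nuclear polymerases, was below both controls in every clone on the deposited scale (4039 ± 155 against 3670 ± 285), as was POLR2M, a factor that binds the polymerase and blocks TFIIF (675 ± 32.6 against 594 ± 61.7). With library-total scaling both overlapped between groups, and without clone 3 the differences went from −0.14 and −0.19 to −0.08 and −0.11. POLR2G, which forms the polymerase stalk with POLR2D, was above both controls in every clone (1519 ± 23.1 against 1635 ± 53.7), while POLR2D overlapped between groups. POLR2I, which helps proofreading and start site choice, had 271 and 195 normalized counts in the mock controls against 246, 261 and 287 in the clones. Its difference of 0.20 rested on the second mock control, the lowest of the 5 values, and without that library it was −0.04. The 5 subunits shared with polymerases I and III (POLR2E, POLR2F, POLR2H, POLR2K and POLR2L) had a median difference of 0.04. The 11 remaining rows had one of 0.03, but that is the value of a rarely read row of POLR2J3 (ENSG00000168255). Of the well-read genes among them, POLR2A, POLR2B, POLR2C, POLR2D and POLR2M were below 0 and POLR2G, POLR2I and POLR2J above.

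POLR2J, an assembly subunit paired with POLR2C, has copies in the same region of chromosome 7. It was at 549 and 535 normalized counts in the mock controls against 600, 626 and 639 in the clones, all 3 above the controls, with a difference of 0.20 (SE 0.10, limma adjusted p = 0.41). The copies were rarely read. POLR2J2 had 3.46 and 12.5 normalized counts in the mock controls against 5.01, 4.50 and 18.3 in the clones. The 2 rows of POLR2J3 had 17.3 and 24.1 against 23.1, 17.1 and 23.1 for ENSG00000168255 and 16.1 and 12.5 against 14.03, 14.4 and 32.7 for ENSG00000285437. Reads of such copies can be split between them, so each copy's value is uncertain. Summed with the rows listed as POLR2J4 over 6 rows, the group stood at 639 in mock control against 740 in CFIm25-m, a log2 ratio of 0.21.

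Among the factors that read the promoter, TBP showed a small difference. TBP had 633 and 613 normalized counts in the mock controls against 600, 528 and 594 in the clones, with a difference of −0.12 (SE 0.11, 95% interval −0.37 to 0.13, limma adjusted p = 0.64). All 3 clones were below the controls on this scale, but the groups overlapped with library-total scaling (−0.05), and without clone 2 the difference was −0.06. Its relative TBPL1, which serves a subset of promoters without a TATA box, had 629 and 606 against 633, 573 and 502, and the groups overlapped. TAF1, the largest TFIID subunit, which contacts acetylated histones and initiator DNA, had 1617 and 1668 against 1574, 1465 and 1576, a difference of −0.10 (SE 0.09, limma adjusted p = 0.65) that was −0.03 with library-total scaling. TFIID as a whole, with 14 members, had 9 below 0 and 5 above, a median difference of −0.09, and a summed count of 14193 ± 224 in mock control against 13592 ± 558 in CFIm25-m (ratio 0.958, or 0.979 without clone 3).

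Within TFIID the most negative differences were those of TAF2 and TAF3. TAF2, which contacts DNA downstream of the start, had 1281 and 1333 normalized counts in the mock controls against 1143, 1065 and 1033 in the clones. Here the groups were apart by more than the spread within either, and the difference was −0.28 (SE 0.10, unadjusted p = 0.017), but with adjustment over all tested genes it did not pass (limma adjusted p = 0.21). TAF3, which binds trimethylated histone H3 at active promoters, had 356 and 321 against 275, 265 and 298, a difference of −0.28 (SE 0.13, limma adjusted p = 0.36), and overlapped between groups with library-total scaling. TAF4 and TAF5, scaffold subunits of the complex, were at 975 ± 29.0 in CFIm25-m against 1074 ± 34.9 and at 498 ± 72.2 against 569 ± 20.8, below both controls in every clone on the deposited scale and overlapping with library-total scaling. The TAF5 difference of −0.20 was −0.08 without clone 3. TAF10, a histone-fold subunit that TFIID shares with the SAGA coactivator, had 255 and 252 in the mock controls against 228, 423 and 384 in the clones. Clone 1 lay below the controls and the other 2 above them, so the difference of 0.39 (SE 0.23, limma adjusted p = 0.46) was no larger than the spread between clones. The TAF10 locus overlaps ILK on the opposite strand, and with the strand setting of the counting not given in the sources used here, reads of the overlap cannot be assigned. The same limit holds for other members. In all, 19 overlap a coding gene of the opposite strand whose mock mean is at least 10% of their own. POLR2I (233, beside 1975 for TBCB) and POLR2J (542, beside 809 for LRWD1) are among them. Other histone-fold subunits lay on both sides of 0. TAF9, TAF11, TAF12 and TAF13 had differences between 0.07 and 0.14, while TAF6, the partner of TAF9, had −0.09, TAF4, the partner of TAF12, had −0.14, and TAF8 had −0.12.

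The most negative difference of any member was that of TFIIB. GTF2B, its single gene, which bridges TBP and the polymerase, had 382 and 352 normalized counts in the mock controls against 315, 293 and 289 in the clones. The clones all lay below the controls at 0.814 times their mean, with a difference of −0.30 (SE 0.13, 95% interval −0.58 to −0.02, unadjusted p = 0.041, limma adjusted p = 0.30). This is the member with the TATAAA shown above. TFIIA overlapped between groups, with GTF2A1 at 1794 ± 39.7 in mock control against 1746 ± 112 in CFIm25-m and GTF2A2 at 1388 ± 30.4 and 1400 ± 255.

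Both subunits of TFIIF, which escorts the polymerase to the promoter, lay below the controls in every clone. GTF2F1 was at 1957 ± 54.2 in mock control against 1716 ± 185 in CFIm25-m, and GTF2F2 at 1040 ± 35.3 and 902 ± 82.5, differences of −0.20 and −0.21 (limma adjusted p = 0.43 and 0.40). Their summed count was 0.873 times that of the controls. Clone 3 was the lowest for each, and without it the differences were −0.10 and −0.13 and the summed ratio 0.925, so the size rested on that library. The sums over complexes were not tested, and an exact two-sided permutation test of 2 samples against 3 gives no p below 0.1.

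The subunits of TFIIE had differences of opposite sign when all clones were included. GTF2E1, its large subunit, had 769 and 811 normalized counts in the mock controls against 990, 1079 and 848 in the clones, all above the controls, a difference of 0.29 (SE 0.12, unadjusted p = 0.034, limma adjusted p = 0.29). Clone 3 was the closest to the controls, and without it the difference was 0.39 and passed (limma adjusted p = 0.028). The fit without clone 3 called 520 of 18809 tested genes higher, beside 181 of 19232 with all clones. RABL3, which overlaps GTF2E1 on the opposite strand, was at 461 in mock control against 586 in CFIm25-m, a difference of 0.35, and the share of its reads in the GTF2E1 value was not tested. GTF2E2, the partner subunit, was at 676 ± 58.0 and 616 ± 114 with overlapping groups, a difference of −0.15 that was 0.01 without clone 3.

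TFIIH was mixed. Its 9 chosen members do not include the helicase subunits ERCC2 and ERCC3, which are given below. They had 6 differences below 0, GTF2H5 among them at −0.0007, and 3 above, with a summed ratio of 0.969 (0.998 without clone 3). CDK7, the kinase that phosphorylates the polymerase tail, had 1362 and 1342 normalized counts in the mock controls against 1362, 1398 and 1056 in the clones. Clones 1 and 2 were at or above the lower control and clone 3 alone was below, so the difference was −0.10 with clone 3 and 0.03 without it. Its partners CCNH and MNAT1, the cyclin and the assembly factor of the kinase, were at 496 ± 62.5 in CFIm25-m against 558 ± 9.02 and at 485 ± 19.9 against 534 ± 5.87, differences of −0.18 and −0.14 (limma adjusted p = 0.55 and 0.57). Every clone was below both controls for each, but for CCNH the groups overlapped with library-total scaling and the difference was −0.07 without clone 2. GTF2H3, a structural subunit of the TFIIH core, had 575 and 585 in the mock controls against 786, 646 and 756 in the clones, all above the controls, with a difference of 0.33 (SE 0.12, unadjusted p = 0.020, limma adjusted p = 0.23). It overlaps EIF2B1 on the opposite strand, whose mean was 1078 in mock control against 1102 in CFIm25-m. GTF2H4 had the largest difference of any member, 0.98 (SE 0.44, limma adjusted p = 0.33), at 4.61 and 6.76 against 11.02, 13.5 and 11.5 normalized counts, but so few reads fell on it that its interval ran from −0.01 to 1.96. It overlaps VARS2 on the same strand, which had 1086 and 1328 normalized counts in the 2 groups.

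The duplicated TFIIH genes with nearly the same promoter, shown above, were read at unlike levels. GTF2H2 had 648 and 677 normalized counts in the mock controls against 701, 637 and 709 in the clones, overlapping groups with a difference of 0.04. GTF2H2C had 443 and 428 against 357, 437 and 326, of which clone 2 lay within the controls, with a difference of −0.23 (SE 0.14, limma adjusted p = 0.48). That difference was −0.14 without clone 3 and −0.35 without clone 2. Summed with the pseudogene GTF2H2B over 3 rows, the log2 ratio was −0.05, from 1320 to 1278 normalized counts. Since reads of these copies can be assigned to any of them, the single values are uncertain and the sum is less so.

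The TFII-I family, DNA-binding factors that were named with the general factors but act at particular promoters, held the member with the lowest unadjusted p. GTF2IRD2B had 123 and 124 normalized counts in the mock controls against 184, 193 and 195 in the clones, 1.55 times the control mean. All clones were apart from the controls, with a difference of 0.62 (SE 0.15, unadjusted p = 0.0024), and the limma adjusted p of 0.084 over all tested genes was the lowest of any member. In the fit without clone 3, 520 of 18809 tested genes were called higher, beside 181 of 19232 with all clones. There GTF2IRD2B passed at 0.61 (unadjusted p = 0.0023, limma adjusted p = 0.044). Its near-identical copy GTF2IRD2 had 41.5 and 55.0 against 69.2, 61.2 and 102, also above both controls in every clone (difference 0.65, SE 0.28, limma adjusted p = 0.31). The 3 rows of this family summed to 173 in mock control against 270 in CFIm25-m, a log2 ratio of 0.64, and each clone's sum lay above both controls. GTF2IRD1, a repressor of its own promoter, had 1186 and 1130 against 960, 1023 and 996, all below the controls (difference −0.22, SE 0.09, unadjusted p = 0.041, limma adjusted p = 0.30, and −0.15 with unadjusted p = 0.12 with library-total scaling). GTF2I, the founding member, was at 3004 ± 257 and 2821 ± 32.2, with overlapping groups.

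**Figure D3:**
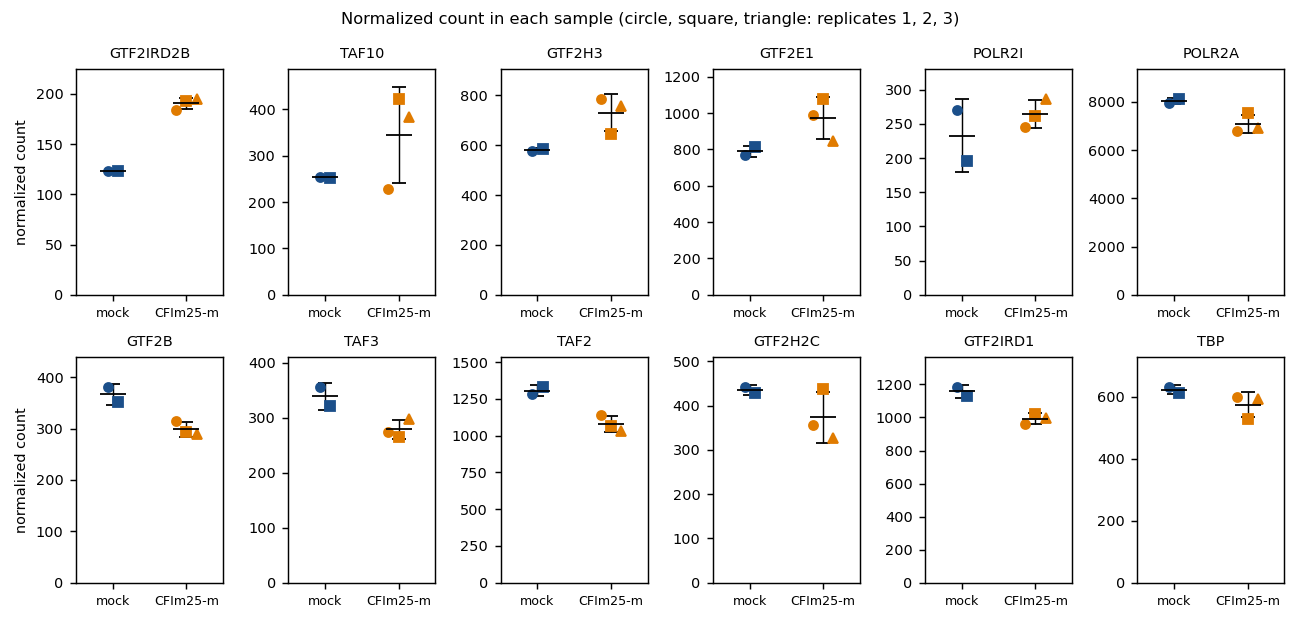
Normalized counts (y axis, from 0) of 12 members in each mock control (blue, n = 2) and each CFIm25-m clone (orange, n = 3), with the mean and SD as black lines. GTF2IRD2B lies at 123 and 124 in the controls and from 184 to 195 in the clones, GTF2B, TAF2 and GTF2IRD1 lie below the controls in every clone, and TAF10 spreads from 228 to 423 among the clones.

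Scaled by gene length, the members covered a wide range of levels. In RPKM, recovered reads scaled by deposited gene length and by the sample's total, TAF7, a TAF1 partner, was highest at 63.7 ± 1.82 in mock control against 64.3 ± 5.88 in CFIm25-m. POLR2A followed at 44.4 and 41.1, then POLR2L at 39.2 and 39.6, POLR2E at 38.3 and 36.5 and POLR2G at 36.5 and 41.2. The median member stood at 9.22 in mock control, where the median tested coding gene stood at 4.46, and 38 members were above the latter. By complex the mock medians were 17.1 for the polymerase, 21.1 for TFIIF, 16.1 for TFIIA, 11.4 for TFIIE, 9.28 for TFIID, 7.62 for TFIIB and 4.25 for TFIIH. Genes of one complex were thus not read at equal length-scaled levels, the 14 of TFIID running from 1.92 to 63.7. The lowest of them was TAF10, with the overlap described above, and the next was TAF3 at 3.21. With the members in order of mock level, 43 of 50 neighbouring pairs had overlapping values over the 5 samples, so most adjacent ranks cannot be separated, while TAF7 lay above POLR2A in every sample.

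**Figure D4:**
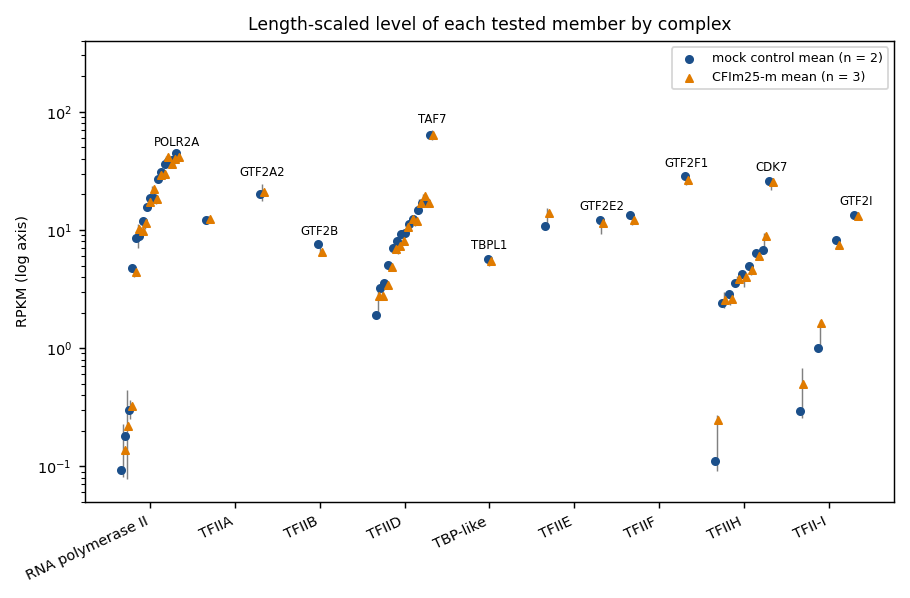
Length-scaled level (y axis, RPKM, log axis) of each tested member, grouped by complex and ordered by its mock mean. Circles are mock control means (n = 2), triangles CFIm25-m means (n = 3), grey lines run from the lowest to the highest of the 5 samples, and the highest member of each complex is named, from TAF7 at 63.7 to TBPL1 at 5.66.

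The genes that work beside these factors, and the TFIIH helicases outside the chosen symbols, were read from lists of related genes. RNA polymerase I had 0 of 8 tested subunits called, with 7 differences below 0 on the deposited scale and, by clone, 6, 3 and 8 below the mock mean. RNA polymerase III had 1 of 11 called. That one was POLR3G, a subunit whose form of the enzyme is typical of pluripotent and proliferating cells, at 1471 and 1435 normalized counts in the mock controls against 2261, 2238 and 2582 in the clones, a rise of 0.70 (SE 0.10, limma adjusted p = 0.0070). That call was lost without mock control replicate 1 (0.71, limma adjusted p = 0.099), without replicate 2 (0.68, limma adjusted p = 0.12) or without the mean-variance trend (0.70, limma adjusted p = 0.12), and held without any one clone. Its paralogue POLR3GL, the form of most differentiated cells, was at 51.7 and 66.3 with a difference of 0.34 (limma adjusted p = 0.55). The 17 kinases, cyclins and phosphatases of the polymerase tail held 0 calls. On the deposited scale 15 of their differences lay below 0, with a median of −0.06, where 8304 of 14801 tested coding genes lay below 0. With library-total scaling the median over all tested genes moved from −0.01 to 0.06. Neither this list nor that of RNA polymerase I was counted on that scale. Against the mock mean 9, 13 and 15 of the 17 tail genes were below in clones 1, 2 and 3. Their lowest unadjusted p was that of CTDSPL, a tail phosphatase, at 1537 ± 46.9 and 1918 ± 166 (limma adjusted p = 0.17). No call was made among the 15 genes of polymerase assembly and import, both TFIIH helicases (ERCC2 and ERCC3, at 0.02 or less from 0 on the log2 scale), 6 tested paralogues of TAFs and TBP, and 3 regulators of TBP. Among the last, DR1, a subunit of the repressor NC2, was at 2533 ± 108 and 2064 ± 252 (difference −0.30, unadjusted p = 0.024, limma adjusted p = 0.25).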

How the data were processed

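Poly(A+) RNA was sequenced as paired ends from 2 mock control and 3 CFIm25-m samples of H9 cells. The authors deposited one signal value for each gene and sample, a read count divided by a size factor. HISAT2, featureCounts, Subread, DESeq2 and hg38 are named in the submitters' notes, without versions, and the strand setting is not given in the sources used here. All values were whole multiples of 1 step (tolerance 0.001), which gave the reads. The deposited group means, fold changes and p-values, the authors' own comparison, were not used. Values were tested as log2(value + 1) with limma 3.58.1 in R 4.3.3, with a mean-variance trend, where at least 2 samples reached 10. Benjamini-Hochberg adjustment ran over 19232 genes and calls were made under 0.05. A fold change on this scale understates that of low genes. The p-values measure only the spread between these samples. edgeR 4.0.16, DESeq2 1.42.0, other scalings (library totals among them, added after seeing the data), filters and pseudocounts, a replicate term and each sample left out served as alternatives. The script was tested on simulated data. Values in every sample are given for POLR2A, TBP, TBPL1, GTF2B, TAF1, CDK7, the duplicated genes, the 5 largest differences each way (mean of at least 100) and the 5 lowest p-values, and GTF2H4 was named after its values were seen. GTF2H2C_2 was not analysed here. Members and lists were chosen with earlier results of these data known.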

Additional observations from a re-analysis of the deposited data

How the results depend on the processing

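Of 21 members followed through 16 alternatives, of which library-total scaling was chosen after seeing the data, 16 kept the direction of their difference in every one that gave a value, and 0 were called under other scalings, filters, pseudocounts, edgeR or DESeq2. With the replicate number as a block, 1 of 51 members was called lower (TAF2, −0.24) and 3 higher (GTF2E1, GTF2H3 and GTF2IRD2B). Over all 19232 tested genes the block called 1064 lower and 1043 higher. Without CFIm25-m replicate 3, 0 of 50 tested members were called lower and 2 higher. In that fit 524 of all 18809 tested genes were called lower and 520 higher. Number 3 occurs only among the clones, so the block gives clone 3 no weight and its differences equal those without it. The labels tie no clone to a control, and deviations of samples with the same number correlated at 0.007 and 0.018, so the block has no pairing behind it. The median over members was −0.0030 under the block, from −0.11 to −0.0024 with 1 sample left out, −0.03 with quantile normalization and −0.02 with library-total scaling. Over all genes, calls lower and higher numbered 180 and 181, 25 and 21 without the trend, 279 and 349 by DESeq2, 147 and 240 with library-total scaling, 1064 and 1043 under the block, and 33 to 524 and 31 to 520 with 1 sample left out. POLR2A ran from −0.23 to −0.06 over the alternatives. NUDT21 stayed at −0.86 without the trend but at an adjusted p of 0.11, and ran from −0.95 to −0.80 with 1 sample left out and from −0.95 to −0.77 over all alternatives, with an adjusted p of 0.062 without mock control replicate 1 (−0.85) and 0.056 without replicate 2 (−0.87). Differences that changed sign were small or of rarely read genes. With 1 sample left out, POLR2I ran from −0.037 (no mock control replicate 2) to 0.43, CDK7 from −0.17 to 0.029 (no clone 3), POLR2J2 from −0.65 (no mock control replicate 1) to 0.47, POLR2J3 (ENSG00000168255) from −0.20 (no mock control replicate 1) to 0.26 and POLR2J3 (ENSG00000285437) from −0.0018 (no clone 3) to 0.58. Leaving out clone 1 or clone 3 also gave ENSG00000168255 −0.038 and −0.039. Under the block the values were 0.029 for CDK7, −0.43 for POLR2J2, −0.039 for ENSG00000168255 and −0.0018 for ENSG00000285437, and quantile normalization gave −0.10 for ENSG00000168255. The cause of these changes was not tested beyond the construction of the block. A count of 0 has a floor of 3 reads, which covers counting error only.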

Other observations

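Pseudogene copies of the TFII-I gene were read at levels that add to the uncertainty of GTF2I. GTF2IP4 had a mean of 1035 normalized counts in mock control against 1051 in CFIm25-m, and GTF2IP1 had 704 and 705, with clone 3 at 1047 and the other clones at 506 and 561. GTF2I and its listed GTF2IP copies, 11 rows in all, summed to 5034 and 5006, a log2 ratio of −0.01. Smaller copies had higher means in the clones, with GTF2IP13 at 47.0 and 91.2 (difference 0.87, limma adjusted p = 0.22), GTF2IP12 at 103 and 144 and GTF2IP20 at 89.3 and 128, and none of these passed the test.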
